A study of Homo sapiens with 18 samples.

Results

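The paired comparison of chambers asks how the transcriptome of A549 cells differed when formaldehyde was in the air, once the effect of the exposure chamber itself had been subtracted. A549 is a human lung carcinoma line of alveolar epithelial origin, here grown at the air-liquid interface, where the upper cell surface meets the gas directly. In each of 9 experiments, lasting 72 h, cultures stood in the exposure chamber and, at the same time, in the reference chamber. No formaldehyde was added to the air of the reference chamber, and 1 array was run per chamber. The exposure chamber received 0.1 ppm formaldehyde in 3 experiments, 0.5 ppm in 3 others and 0 ppm in the remaining 3, and all chambers were humidified. The unit compared was the log2 signal of an exposure chamber minus that of its own reference chamber, called the chamber difference, with pairs taken from the letter and replicate number in the sample titles. The 6 chamber differences with formaldehyde (0.1 and 0.5 ppm pooled) were set against the 3 at 0 ppm, so all 18 of the 18 arrays of the series were used. A positive result means that the exposure chamber stood higher, relative to its reference chamber, with formaldehyde than without. All cultures were of a single cell line, and bulk RNA cannot tell fewer expressing cells from less RNA per cell.

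Formaldehyde is a reactive aldehyde that cells also make themselves. It binds glutathione, and the adduct is oxidised to formate by ADH5 and ESD, while ALDH2 oxidises aldehydes in mitochondria. One-carbon units that enter the folate pool can be oxidised to carbon dioxide by ALDH1L2, a mitochondrial dehydrogenase of formyl-tetrahydrofolate. What escapes can crosslink proteins to DNA, which calls on dedicated repair, and can provoke the oxidative, heat shock and unfolded protein responses.

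Genes were read from Affymetrix HG-U133 Plus 2.0 arrays, on which a gene is measured by 1 or more probesets. Of 54675 probesets, the 27337 with a mean log2 signal above that of the median probeset (4.78, a signal of 27.5) were counted first, because the residual SD of the chamber difference had a median of 0.48 among them and 1.72 among the dimmer ones. Each gene was represented by its brightest probeset that names a single gene, which gave 19775 genes, 12392 of them above the median signal. Markers of the line were bright: AKR1B10, AKR1C2, ALDH1A1 and NQO1 had signals of 11535 to 37741, and the keratin KRT18 had 8705 to 25797, while KRT19 was dim at 24.6 to 140. The leukocyte markers PTPRC and CD3E did not exceed 12.4 and the fibroblast markers COL3A1, DCN, LUM and PDGFRB did not exceed 26.97 on any array. CD14 reached 338, PECAM1 106 and COL1A1 459.

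The chamber difference itself varied widely between experiments. Between 2.17% and 32.9% of the probesets above the median signal lay more than 1 log2 unit apart between the paired chambers when formaldehyde was present, against 2.65% to 22.5% at 0 ppm. The widest difference was in replicate 1 at 0.1 ppm, followed by replicate 3 at 0 ppm with 22.5%. In both of these the reference array had a low signal of the 5′ actin probeset, a control for intact RNA, with log2 signals of 5.90 and 6.85. The chamber difference of this probeset averaged 0.30 ± 1.22 with formaldehyde and 0.37 ± 1.24 at 0 ppm (SD, n = 6 and 3), and the groups differed by -0.067 (exact two-sided permutation test, p = 0.905, where the smallest p this design allows is 0.0238). The log2 ratio of the 3′ to the 5′ actin probeset gave -0.30 with formaldehyde and -0.24 at 0 ppm (exact permutation p = 0.976). The run numbers in the raw file names were 1 to 6 for experiments with formaldehyde and 7 to 9 for those at 0 ppm, and the meaning of these numbers was not given in the sources used here. The study describes the order of its experiments as randomised, and how that order relates to the run numbers was not stated. Anything that goes with the run number and the presence of formaldehyde cannot be told apart.

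**Figure D1:**
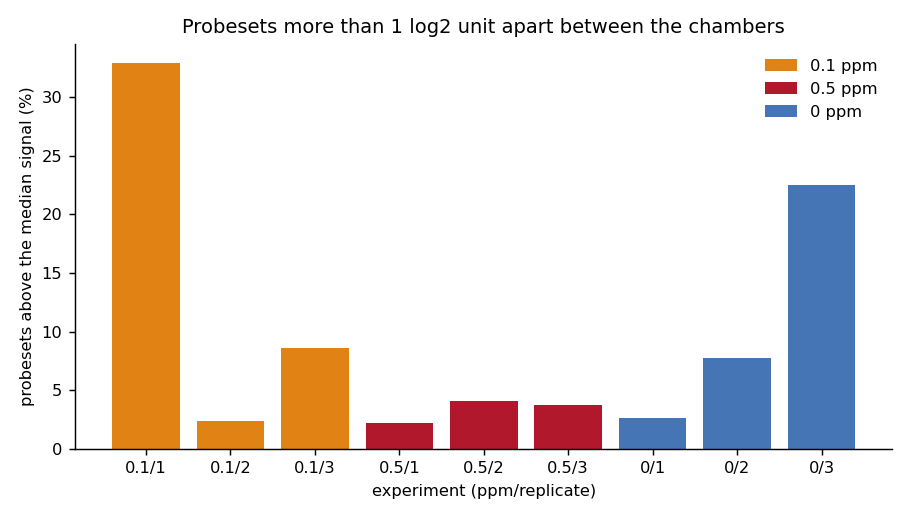
Share of the 27337 probesets above the median signal whose log2 signal differed by more than 1 between exposure and reference chamber (vertical axis, %), for each of the 9 experiments (horizontal axis, concentration in ppm and replicate). The share ran from 2.17% to 32.9% in the 6 experiments with formaldehyde and from 2.65% to 22.5% in the 3 at 0 ppm.

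Between formaldehyde and none, the chamber difference passed the study's threshold, an unadjusted p under 0.05 in limma, for 253 of the 27337 probesets. This is 0.925% of those tested, 100 of them higher (0.366%) and 153 lower (0.56%), where the threshold by its definition passes 5% when nothing differs and the variances are well described. In limma 0 probesets had a Benjamini-Hochberg adjusted p under 0.05, and the lowest adjusted p above the median signal was 0.989. Among the dimmer probesets 6.92% passed the unadjusted threshold. Of the 12392 genes, 65 passed the unadjusted threshold (0.525%), 29 higher (0.234%) and 36 lower (0.291%). The excess of lower probesets was lost under several alternatives, with 142 higher and 134 lower of 276 after quantile normalization, 1137 higher and 1009 lower without a filter on signal, 339 higher and 318 lower without replicate 1 at 0.1 ppm, and 192 higher and 147 lower without both experiments of low actin signal. The count moved to 762 without replicate 1 at 0 ppm and to 657 without replicate 1 at 0.1 ppm, and to 167 without replicate 2 at 0 ppm and 163 without replicate 3 at 0.5 ppm. The number of genes was 227 without replicate 1 at 0.1 ppm, 150 without replicate 1 at 0 ppm and 43 without replicate 3 at 0.5 ppm, and it was 101 without both experiments of low actin signal.

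Of the 65 genes, 31 separated the groups without overlap. For 78 of the 12392 genes (0.629%) the 6 chamber differences with formaldehyde did not overlap the 3 at 0 ppm (34 higher, 0.274%, and 44 lower, 0.355%), and 31 of them (0.25%) also passed the threshold, 13 higher and 18 lower. These 31 are the genes described next, and their adjusted p ranged from 0.989 to 1.00 in limma. In 24 of the 31 the mean chamber difference was larger in size at 0 ppm than with formaldehyde, as it was in 71.0% of all 12392 genes. The mean with formaldehyde by itself passed the threshold against 0 in 7 of them, and the mean at 0 ppm in 21, where 370 and 405 of all genes did so. These means are the parts of the contrast that chose the 31 genes, so their counts are a description.

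**Figure D2:**
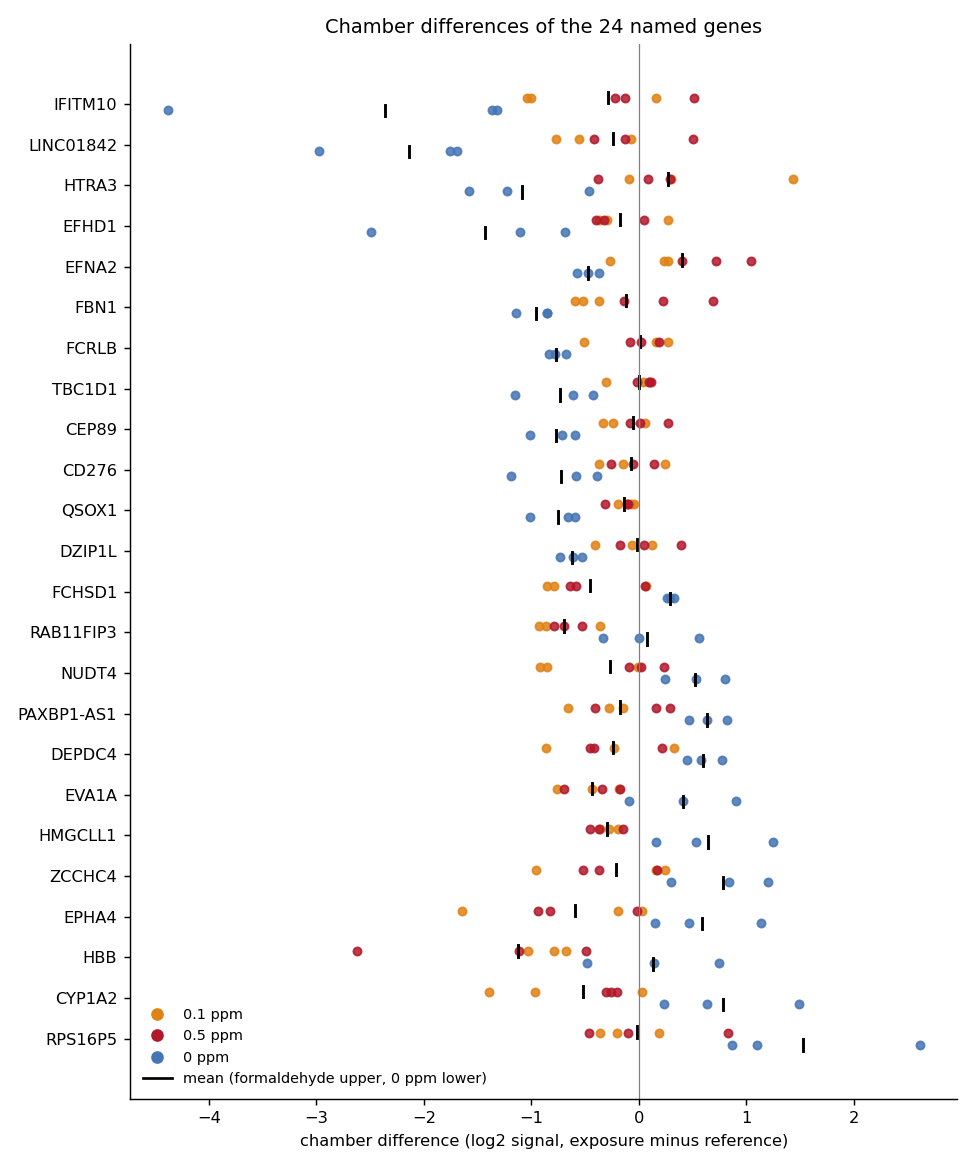
Chamber differences (horizontal axis, log2 signal of exposure minus reference chamber) of 24 genes, the 12 with the largest positive and the 12 with the largest negative result (rows). Points are single experiments and black ticks are group means, with formaldehyde on the upper line of each row and 0 ppm on the lower. For IFITM10 the mean was -0.29 with formaldehyde and -2.36 at 0 ppm, and for RAB11FIP3 it was -0.69 with formaldehyde and 0.08 at 0 ppm.

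Of the 31 genes, 7 had a chamber difference with formaldehyde past the threshold, and all 7 were lower in the exposure chamber. They were RAB11FIP3, HBB, EVA1A, EPHA4, FCHSD1, SH2D2A and KCNV1. Most genes past this threshold were lower: 332 of the 370 among all 12392 genes, with 38 higher. After quantile normalization 151 were lower and 76 higher. RAB11FIP3, an effector of the recycling endosome GTPase RAB11, had the lowest p of the 7 for its difference from the reference chamber. Its signals in the exposure chamber were 131, 116 and 72.8 at 0.1 ppm and 90.4, 107 and 86.6 at 0.5 ppm, against 238, 148 and 139 and 146, 154 and 150 in the paired reference chambers. At 0 ppm they were 143, 166 and 178 in the exposure chamber and 97.2, 165 and 224 in the reference chamber. RAB11FIP3 was thus lower in the exposure chamber in 6 of 6 experiments with formaldehyde, while the 3 at 0 ppm lay on both sides of 0. The mean chamber difference was -0.69 ± 0.21 with formaldehyde and 0.08 ± 0.45 at 0 ppm (SD), a result of -0.77 with a 95% interval from -1.41 to -0.13. It was -0.80 for 0.1 against 0 ppm and -0.75 for 0.5 against 0 ppm. Between the exposure chambers alone RAB11FIP3 differed by -0.71, and between the reference chambers by 0.06. Its other probesets above the median signal gave 0.07 and 0.60, of the opposite sign, so the result belongs to 1 of 3 probesets. Without replicate 1 at 0 ppm the difference was -0.53 and no longer passed the threshold.

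HBB, the beta chain of haemoglobin, was dim, with signals of 11.5 to 28.6 in the 6 exposure chambers with formaldehyde and 25.3 to 70.3 in their reference chambers. At 0 ppm the exposure chambers had 26.7, 36.6 and 46.0 and the reference chambers 37.4, 33.2 and 27.4. The chamber difference with formaldehyde ran from -2.62 to -0.49, with a mean of -1.12 ± 0.77, against 0.14 ± 0.62 at 0 ppm (SD), a result of -1.26. The lowest of the 0 ppm experiments, at -0.49, touched the highest with formaldehyde. The name of this probeset carries the suffix that the manufacturer gives where probes also match other transcripts, and of its 3 other probesets, all below the median signal, 1 gave 1.26, with -0.52 and -0.25 in the other two. Without replicate 3 at 0 ppm the result was -0.95 and lost the threshold, as it did without replicate 2 at 0 ppm (-1.25), replicate 1 at 0.1 ppm (-1.27) or replicate 3 at 0.5 ppm (-1.26).

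EVA1A, a membrane protein of the endoplasmic reticulum and lysosome linked to autophagy, was also lower in the exposure chamber in 6 of 6 experiments with formaldehyde. Its chamber difference had a lowest value of -0.76 and a highest of -0.17 with formaldehyde, and was 0.41, -0.09 and 0.91 at 0 ppm. The result was -0.84, and it was -0.59 and past the threshold no longer without replicate 3 at 0 ppm. EPHA4, a receptor tyrosine kinase for ephrins, had a mean chamber difference of -0.60 ± 0.66 with formaldehyde and 0.59 ± 0.50 at 0 ppm (SD). Of its 6 values with formaldehyde, 3 lay between -1.64 and -0.82 and the other 3 between -0.19 and 0.03. The result of -1.18 missed the threshold without replicate 1 at 0 ppm (-1.24) or replicate 3 at 0 ppm (-0.91). One of the ligands of this receptor family, EFNA2 (ephrin-A2), went the other way: its mean was 0.40 ± 0.45 with formaldehyde and -0.47 ± 0.10 at 0 ppm. This result of 0.87 missed the threshold without replicate 2 (0.87) or replicate 3 at 0 ppm (0.82). The other probesets of both genes were below the median signal and varied in sign. They gave -0.45 and 1.04 for EFNA2 and -1.14, 1.49, -0.64 and -0.20 for EPHA4. A link between the 2 genes was not tested. FCHSD1, a membrane-bending adaptor, averaged -0.46 with formaldehyde and 0.29 at 0 ppm, SH2D2A, a signalling adaptor best known from T cells, -0.38 with formaldehyde and 0.30 at 0 ppm, and KCNV1, a modulatory potassium channel subunit, -0.35 with formaldehyde and 0.30 at 0 ppm. Each of these 3 missed the threshold when replicate 1 at 0 ppm was left out, where the result of SH2D2A was -0.45 rather than -0.69. Of 15 alternatives FCHSD1 missed the threshold in 10, and SH2D2A and KCNV1 in 9 each. FCHSD1 missed it whichever of the 0 ppm experiments was left out.

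**Figure D3:**
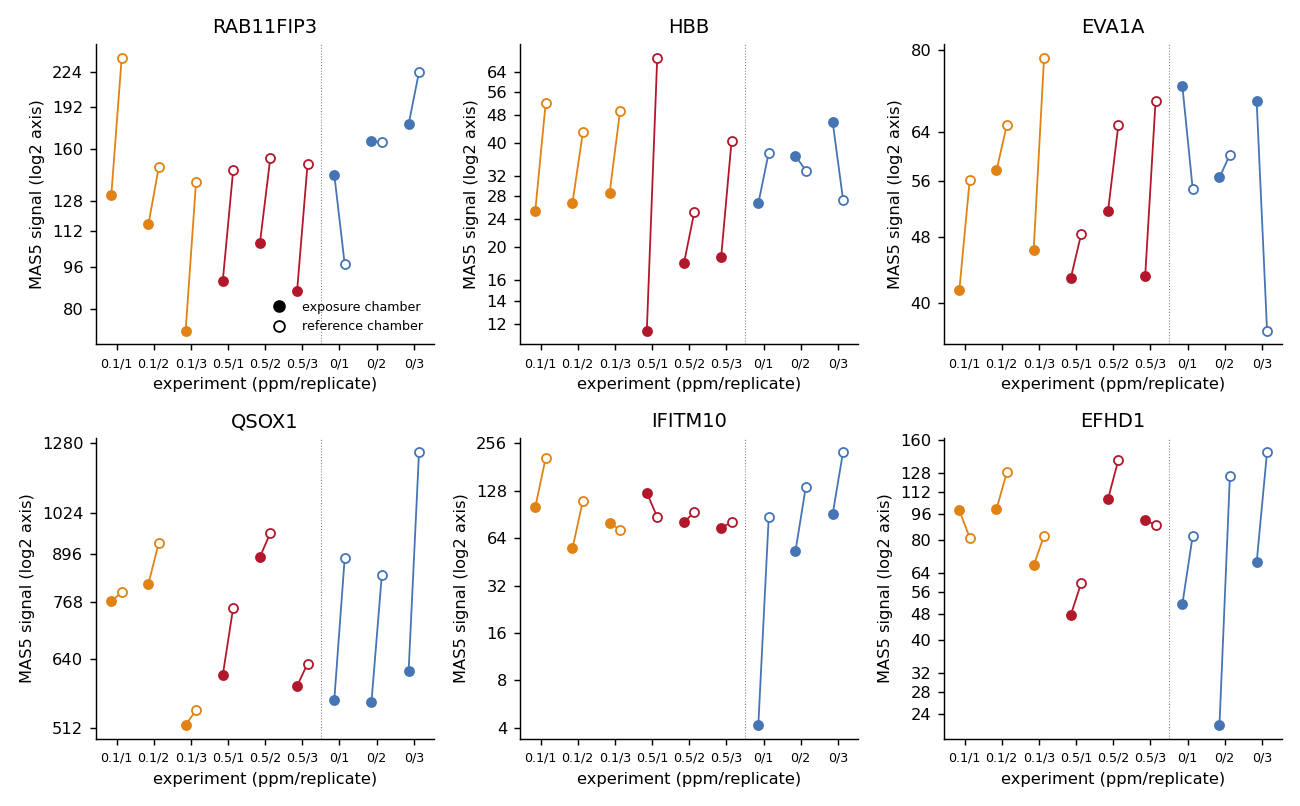
MAS5 signal (vertical axis, log2 scale) in the exposure chamber (filled) and the paired reference chamber (open) of each experiment (horizontal axis, ppm and replicate) for 6 genes. RAB11FIP3, HBB and EVA1A (top) were lower in the exposure chamber in 6 of 6 experiments with formaldehyde, while QSOX1, IFITM10 and EFHD1 (bottom) had their widest gaps at 0 ppm, with means of -0.75, -2.36 and -1.43.

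In the 13 genes higher with formaldehyde, the exposure chamber lay below its own reference chamber in each experiment at 0 ppm. In EFNA2, FCRLB, TBC1D1, CD276, QSOX1, DZIP1L and PIK3R3 the exposure chambers with formaldehyde differed from those at 0 ppm by 0.09 to 0.30. The reference chambers of the same experiments, to which no formaldehyde was added, differed by -0.58 to -0.37. IFITM10, of a family of interferon-induced transmembrane proteins, had the largest result, 2.07 with a 95% interval from 0.45 to 3.69. Its chamber difference ran from -1.04 to 0.52 with formaldehyde, with a median of -0.17, and was -4.38, -1.36 and -1.32 at 0 ppm. The lowest of these belonged to an exposure chamber with a signal of 4.15, against 53.02 and 90.6 in the other two, and without that experiment (replicate 1 at 0 ppm) the result was 1.06 and missed the threshold. LINC01842, a long noncoding RNA, had a mean of -0.24 ± 0.45 with formaldehyde and -2.14 ± 0.72 at 0 ppm (SD), a result of 1.90. It passed the threshold in 15 of 15 alternatives, at 0.77 with 32 added to each signal. LINC01842 was dim, with a mean log2 signal of 4.90. Its signals in the exposure chamber were 23.1 to 36.02 with formaldehyde and 4.82 to 19.1 at 0 ppm. These signals are part of the chamber differences that chose the gene.

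HTRA3, a secreted serine protease, had a mean of 0.27 with formaldehyde and -1.09 at 0 ppm, a result of 1.36, and 1.12 without replicate 1 at 0 ppm, where it missed the threshold. EFHD1, a calcium-binding protein of mitochondria, had signals of 47.8 to 107 in the exposure chambers with formaldehyde and 59.65 to 140 in their reference chambers. At 0 ppm it had 51.4, 22.3 and 68.7 in the exposure chambers and 82.8, 125 and 148 in the reference chambers. EFHD1 was thus lower in the exposure chamber in 3 of 3 experiments at 0 ppm, by -1.43 ± 0.94, and within 0.39 of its reference with formaldehyde, where the mean was -0.18 ± 0.27. Without replicate 2 at 0 ppm the result of 1.25 became 0.72 and missed the threshold.

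QSOX1, which forms disulfide bonds in secreted proteins, was the brightest of the 13, with a mean log2 signal of 9.51. Its signals were 518 to 888 in the exposure chambers with formaldehyde and 543 to 959 in their reference chambers. At 0 ppm they were 561, 557 and 616 in the exposure chambers and 885, 839 and 1244 in the reference chambers. The chamber difference of QSOX1 was small with formaldehyde, -0.14 ± 0.10, and -0.75 ± 0.23 at 0 ppm (SD), while its other probesets above the median signal gave 0.38 and -0.11. Without replicate 3 at 0 ppm the result of 0.62 was 0.49 and missed the threshold. FBN1, the microfibril protein fibrillin-1, had a mean of -0.12 with formaldehyde and -0.95 at 0 ppm, and the immune checkpoint ligand CD276 had -0.07 with formaldehyde and -0.72 at 0 ppm. TBC1D1, which switches off Rab GTPases in glucose transporter traffic, had 0.0051 with formaldehyde and -0.73 at 0 ppm. The centrosomal CEP89 and the ciliary DZIP1L had means of -0.05 and -0.01 with formaldehyde and -0.77 and -0.62 at 0 ppm. FCRLB, an Fc receptor-like protein, had 0.0087 with formaldehyde and -0.77 at 0 ppm and passed the threshold in 15 of 15 alternatives. PIK3R3, a regulatory subunit of phosphoinositide 3-kinase, completed the 13 with -0.05 with formaldehyde and -0.63 at 0 ppm. Of 15 alternatives, DZIP1L missed the threshold in 11, CD276 and PIK3R3 in 9, FBN1 in 8, TBC1D1 in 3 and CEP89 in 1. CD276 was at 0.41 rather than 0.64 without replicate 3 at 0 ppm.

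The other lower genes stood higher in the exposure chamber at 0 ppm and near or below their reference with formaldehyde. RPS16P5, a pseudogene of a ribosomal protein whose probes may also detect its parent gene, averaged -0.02 with formaldehyde and 1.53 at 0 ppm, a result of -1.55. It passed the threshold in 15 of 15 alternatives, at -1.01 without replicate 2 at 0 ppm and -0.74 with 32 added to each signal. RPS16P5 was dim, with a mean log2 signal of 4.87, close to the cut at the median signal. Its signals at 0 ppm were 41.2, 74.7 and 39.4 in the exposure chambers and 22.5, 12.2 and 18.3 in the reference chambers. With formaldehyde they were 15.7 to 66.2 in the exposure chambers and 16.5 to 58.2 in the reference chambers. The alternatives, here and for the other genes, reuse the experiments that chose the genes and are not independent tests. CYP1A2, a cytochrome P450 that oxidises xenobiotics, had -0.52 ± 0.55 with formaldehyde and 0.79 ± 0.64 at 0 ppm (SD), on a probeset of the same shared-match suffix as that of HBB. Without replicate 2 at 0 ppm its result of -1.30 was -0.95 and missed the threshold. HMGCLL1, a lyase of the ketone body pathway, was lower in the exposure chamber in 6 of 6 experiments with formaldehyde (-0.45 to -0.15) and higher in 3 of 3 at 0 ppm (0.16, 0.53 and 1.25), a result of -0.95. ZCCHC4, a methyltransferase of ribosomal RNA, had -0.21 with formaldehyde and 0.78 at 0 ppm, and NUDT4, a hydrolase of inositol pyrophosphates, -0.27 with formaldehyde and 0.53 at 0 ppm. NUDT4 missed the threshold in 10 of 15 alternatives and ZCCHC4 in 3, and NUDT4 was at -0.53 rather than -0.80 without both experiments of low actin signal.

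DEPDC4 and the antisense RNA PAXBP1-AS1 had means of -0.24 and -0.17 with formaldehyde and 0.60 and 0.64 at 0 ppm. NCBP2, the small subunit of the nuclear cap-binding complex, was the brightest of the 31, with signals of 4554 to 7197 in the exposure chambers with formaldehyde and 4530 to 8576 in their reference chambers. At 0 ppm it had 9048, 9105 and 7233 in the exposure chambers and 6842, 6652 and 3973 in the reference chambers, so its result of -0.65 came with a higher signal in the exposure chamber in 3 of 3 experiments at 0 ppm. Its other probeset above the median signal gave -0.07. MCM8, a helicase of homologous recombination, gave -0.60, the pseudogene DUSP5P1 -0.72 and ANKRD42-DT, a divergent transcript, -0.73. Of 15 alternatives DUSP5P1 missed the threshold in 11, NCBP2 and MCM8 in 10, ANKRD42-DT in 9, DEPDC4 in 8 and PAXBP1-AS1 in 2. NCBP2, MCM8, DUSP5P1, ANKRD42-DT and DEPDC4 missed it whichever of the 0 ppm experiments was left out, and with 32 added to each signal ANKRD42-DT was at -0.38. Across the 31 genes, 6 had 13 further probesets above the median signal, of which 8 had the sign of the brightest and 0 passed the unadjusted threshold in limma.

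Setting the pooled comparison beside its parts shows where its calls lay. Of the 253 probesets that passed, 34 had a chamber difference past the threshold only with formaldehyde, 160 only at 0 ppm, 3 in both and 56 in neither. The 0 ppm difference was the larger in size for 217 of them (85.8%), against 70.2% of all 27337 probesets, and the 2 differences had opposite signs for 73.9%, against 23.5% of all. The standard error had a median of 0.21 for the mean with formaldehyde and 0.30 for that at 0 ppm, which rests on fewer experiments. Among the 29 higher genes the 0 ppm difference was the larger in 29, and 0 had a difference past the threshold with formaldehyde alone. Among the 36 lower genes 13 did, and 16 had one at 0 ppm alone. Since the result is made of these 2 means, these counts describe the calls and carry no test.

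**Figure D4:**
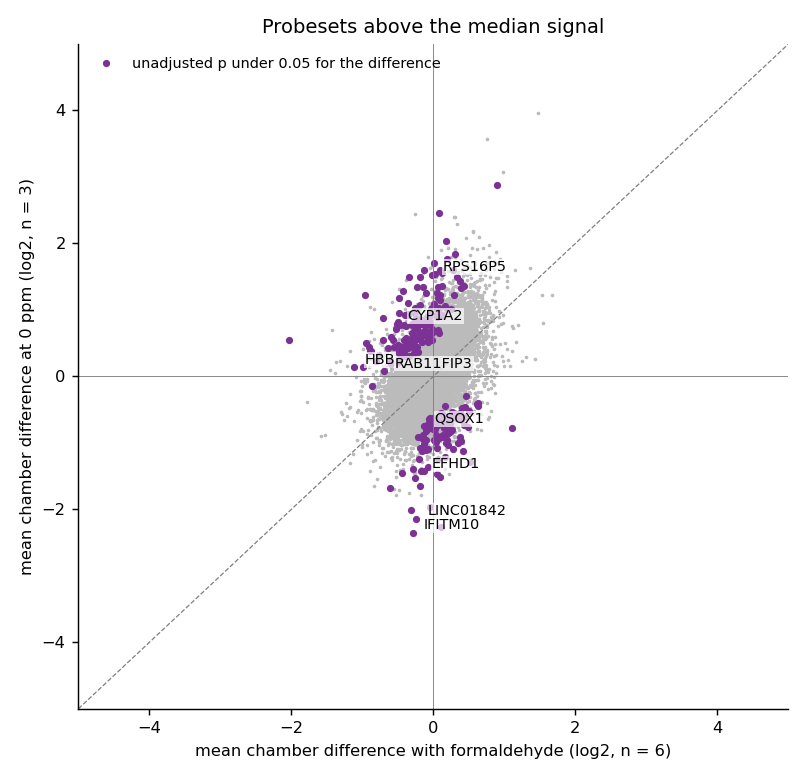
Mean chamber difference of each of the 27337 probesets above the median signal with formaldehyde (horizontal axis, log2, 6 experiments) and at 0 ppm (vertical axis, log2, 3 experiments), with equal values on the dashed line. The 253 probesets past the unadjusted threshold (purple) lay mostly where the 0 ppm difference was the larger in size, as 217 of them did.

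The exposure chamber was also set against its own reference chamber, with and without the gas taken separately. In the main fit the share past the threshold lay, in both sets, below the 5% that it passes by its definition when nothing differs. That was not so under other settings, given below. With formaldehyde 897 probesets passed the threshold (3.28%), of which 113 were higher (0.413%) and 784 lower (2.87%) where the gas was led in. At 0 ppm 1224 did (4.48%), 439 higher (1.61%) and 785 lower (2.87%). After quantile normalization 246 were higher and 370 lower with formaldehyde, and 637 of 1186 were higher at 0 ppm, so the excess of lower probesets shrank with formaldehyde and was lost at 0 ppm. In limma 0 probesets of either had an adjusted p under 0.05. The first count was 574 without replicate 1 at 0.1 ppm, and the second was 2565, 488 and 341 without replicate 1, 2 and 3 at 0 ppm and 2575 without replicate 1 at 0.1 ppm.

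The 2 sets of chamber differences share no array, and 76.5% of the probesets had the same sign in both (Pearson's r = 0.62 and Spearman's rho = 0.65 across 27337 probesets, which are not independent replicates). Without the 2 experiments of low actin signal 64.9% had the same sign, with r = 0.26. At the level of genes, 67 were lower in the exposure chamber past the threshold in both sets, 20.2% of the 332 with formaldehyde (2.68% of all genes) and 20.5% of the 327 at 0 ppm (2.64%). Higher in both were 5, of 38 with formaldehyde (0.307%) and 78 at 0 ppm (0.629%). Without the 2 experiments of low actin signal the number lower in both was 22, 9.78% of 225 with formaldehyde and 11.5% of 191 at 0 ppm. After quantile normalization it was 18, 11.9% of 151 with formaldehyde and 8.37% of 215 at 0 ppm.

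Some familiar genes show how a difference of like size in both sets drops out of the comparison, and they were chosen after their values were seen. CRYAB, a small heat shock protein, was lower in the exposure chamber in 9 of 9 experiments, by -0.56 with formaldehyde and -0.55 at 0 ppm, which leaves -0.02 between the groups. CSF1, a macrophage growth factor, had -0.45 with formaldehyde and -0.47 at 0 ppm, and both genes passed the threshold in both sets. Without the experiments of low actin signal CRYAB had -0.48 with formaldehyde and -0.41 at 0 ppm and CSF1 -0.41 with formaldehyde and -0.36 at 0 ppm, and for neither gene did the 0 ppm value then pass the threshold. IFITM1, an interferon-induced transmembrane protein, had -0.55 with formaldehyde and -0.57 at 0 ppm, past the threshold with formaldehyde only. ADM, the hypoxia-induced peptide adrenomedullin, was higher in the exposure chamber in 9 of 9 experiments, by 0.44 with formaldehyde and 0.40 at 0 ppm, again past the threshold with formaldehyde only. Without replicate 3 at 0 ppm, an experiment of low actin signal, the 0 ppm value of ADM was 0.13. Without both such experiments IFITM1 had -0.44 with formaldehyde and -0.39 at 0 ppm and passed in neither set. BCL2A1, an inhibitor of apoptosis, was higher in 6 of 6 experiments with formaldehyde (0.44 to 0.80), with a mean of 0.56, against 0.39, -0.04 and 0.56 at 0 ppm, and the groups overlapped with a difference of 0.26 (95% interval from -0.29 to 0.81). Without replicate 3 at 0 ppm the 0 ppm mean of BCL2A1 was 0.18.

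The chambers were also compared across experiments one kind at a time. Between exposure chambers, with formaldehyde against 0 ppm, 536 probesets passed the threshold (1.96%), 200 higher (0.732%) and 336 lower (1.23%). Between reference chambers of the same experiments, to which no formaldehyde was added, 214 did (0.783%). Between the 2 concentrations, 0.5 minus 0.1 ppm, 265 probesets passed (0.969%), 154 higher (0.563%) and 111 lower (0.406%), with 0 at an adjusted p under 0.05. This count was 535 without replicate 2 at 0.1 ppm and 168 without replicate 2 at 0.5 ppm. The single concentrations against 0 ppm, which share the 0 ppm experiments, gave 169 probesets at 0.1 ppm (0.618%) and 262 at 0.5 ppm (0.958%).

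Formaldehyde metabolism and the stress responses showed few differences at the precision of 9 experiments. Over 30 lists of genes, 539 members were above the median signal, and 2 of them (0.371%) passed the threshold, against 0.525% of all genes. They were GPX3, a secreted glutathione peroxidase, and CCL20, a chemokine of epithelia, and lie outside the rule for named genes. GPX3 averaged 0.02 with formaldehyde and -0.79 at 0 ppm, and CCL20 averaged -0.22 with formaldehyde and 0.60 at 0 ppm, and in both the groups overlapped. Without replicate 2 at 0 ppm GPX3 was at 0.47 rather than 0.81 and CCL20 at -0.55 rather than -0.82, and neither passed. Without replicate 1 at 0.1 ppm 11 list members passed, 5 higher and 6 lower (2.04%, against 1.83% of all genes). Without replicate 1 at 0 ppm 6 were higher and 1 lower (1.30%, against 1.21% of all genes).

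List medians ran from -0.20 to 0.18, with 24 of 30 within 0.1 of 0, where the median of all genes was 0.02. The half-width of the 95% interval of a member had a median of 0.78 on the log2 scale. For such a member an estimate smaller than this did not pass the threshold. A true change of this size or somewhat larger could therefore be missed. For 323 of the 539 members the interval lay within 1 log2 unit of 0 on both sides.

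**Figure D5:**
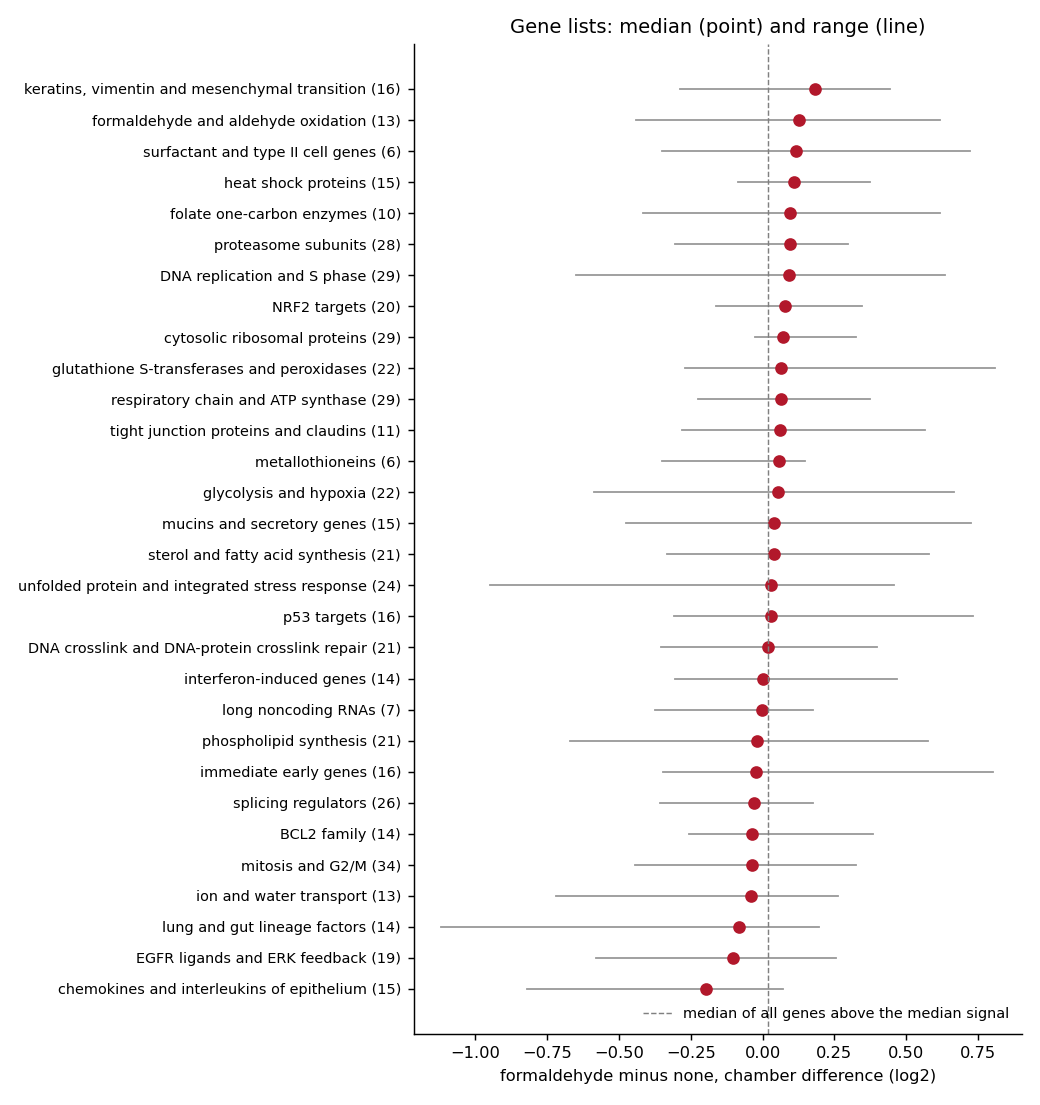
Formaldehyde minus none in the chamber difference (horizontal axis, log2) for 30 gene lists (rows, number of genes above the median signal in brackets). Points are list medians, which ran from -0.20 to 0.18, lines span the lowest to the highest gene, and the dashed line is the median of all genes above the median signal, 0.02.

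Of the 13 measured genes of formaldehyde and aldehyde oxidation 0 passed, in limma and unadjusted, with values from -0.44 to 0.62. ADH5, which oxidises the glutathione adduct, had signals of 6013 to 8885 in the exposure chambers with formaldehyde and 7064 to 7688 in those at 0 ppm. Its chamber difference was -0.04 with formaldehyde and -0.16 at 0 ppm, a difference of 0.13 with an interval from -0.46 to 0.71. ESD, the hydrolase of the next step, gave 0.08 (-0.46 to 0.62) and ALDH2 0.15 (-0.39 to 0.70). The largest in size of the list, ALDH1L2 at 0.62 (-0.22 to 1.45), was 0.56 with formaldehyde, past the threshold against its reference, and -0.05 at 0 ppm. Among the NRF2 targets, the antioxidant genes, 0 of 20 passed: NQO1 gave -0.08, the glutathione synthesis subunits GCLM 0.0019 and GCLC -0.0074. The metallothioneins, with MT1X at 0.02 and MT2A at 0.10, had 0 of 6.

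The heat shock proteins had 0 of 15, and the unfolded protein and integrated stress response 0 of 24, with the chaperone HSPA5 at 0.06 and DDIT3 at -0.0018. In that second list CRELD2, a chaperone of the endoplasmic reticulum named for its low value, averaged -0.56 with formaldehyde and 0.39 at 0 ppm and missed the threshold at -0.95 (-1.90 to 0.0054). Repair of DNA crosslinks had 0 of 21, including SPRTN, the protease of DNA-protein crosslinks, at -0.27 (-1.08 to 0.54). Of 16 p53 targets 0 passed, among them CDKN1A at 0.73 (-0.46 to 1.93), MDM2 at -0.30 and GDF15 at 0.62, the last with 0.54 with formaldehyde and -0.08 at 0 ppm. The mean of GDF15 with formaldehyde passed the threshold against its reference, and the difference between the groups did not.

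Inflammation, airway and growth genes were alike in this respect. The chemokines and interleukins had the lowest list median, -0.20, with 6 of 15 members above 0, against 53.1% of all genes, and CCL20 as the single call, while CXCL8 gave 0.06. The immediate early genes FOS, EGR1 and JUN gave -0.35, -0.17 and 0.05. Of 15 mucins and secretory genes 0 passed, with MUC5AC at 0.26, MUC5B at -0.10 and MUC1 at -0.13, where MUC1 itself was at -0.57 with formaldehyde and -0.44 at 0 ppm. The surfactant protein SFTPC gave 0.72 and the lung lineage factor NKX2-1 gave -1.12 with an interval from -3.05 to 0.81. The list of keratins, vimentin and mesenchymal genes had the highest median, 0.18, with 11 of 16 above 0 and 0 past the threshold. DNA replication genes had 0 of 29, with MCM2 at 0.64 (-0.24 to 1.51) and PCNA at -0.13, and mitotic genes 0 of 34, with MKI67 at 0.20 and TOP2A at 0.08. The cytosolic ribosomal proteins had 29 genes between -0.03 and 0.33 with 25 of them above 0, against 53.1% of all genes, and 0 passed in limma at the unadjusted threshold.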

How the data were processed

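Total RNA of 18 A549 samples was amplified, labelled and hybridised by the authors. They computed MAS 5.0 signals in R, and the deposited values are intensities on a linear scale, each array scaled to a trimmed mean of 500. Log2 signals were taken here, exposure minus reference chamber, and the 9 differences were tested with limma 3.58.1 (lmFit and eBayes, 2-sided), with Benjamini-Hochberg adjustment over all 54675 probesets. The methods pair the chambers in time and the titles number them. Deviations of same-numbered arrays correlated at 0.0086 to 0.490, above 0.1 in 6 of 9 pairs, and 7 of 9 correlated best with their own number. P-values measure the spread between these experiments. Probe names came from a platform annotation: 41097 probesets name 1 gene, 1801 several and 11777 none. Genes were named where the unadjusted p was under 0.05 and the groups did not overlap (the 12 largest and the 5 of lowest p in each direction), and list members as the first 3 of a list. The remaining 7 of the 31 genes that met both criteria, and a few others marked as such, were named after their values were seen. Members and lists were chosen with earlier results of these data known. The fit was tested on simulated data. Alternatives covered low signals, normalization, prior variance, grouping, pairing, single experiments and probesets.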

Additional observations from a re-analysis of the deposited data

Results flagged for a closer look

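For FBN1, the microfibril protein, the 0.5 ppm chamber difference stood above that at 0.1 ppm by 0.75 on the log2 scale, past the unadjusted threshold in limma. Of the 65 genes past the threshold for formaldehyde minus none, FBN1 was the 1 in which the pooled concentrations differed by that test. Among all probesets above the median signal 0.969% passed it, and 0 had an adjusted p under 0.05. In TBC1D1 the chamber difference of replicate 2 at 0.1 ppm, -0.30, stood apart below the other 5 with formaldehyde, and in HBB that of replicate 1 at 0.5 ppm, -2.62, did so. The 5′ actin probeset of replicate 1 at 0.1 ppm had a chamber difference of 2.73, far above the other 5. Of 32 groups of 6 examined for such a sample, chance marks about 1 in 20.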

How the results depend on the processing

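With 0 ppm held to 3 experiments and with signals that scatter widely when low, the counts depended on the treatment of dim probesets and on single experiments. For formaldehyde minus none, with formaldehyde, without and 0.5 minus 0.1 ppm, the main counts were 253, 897, 1224 and 265 probesets. Without a filter they were 2146, 2924, 3379 and 2052, with 32 added to each signal 639, 2317, 3293 and 922, and with the dim probesets left out before the fit 521, 1721, 2423 and 645. A trend of the prior variance gave 1583 with formaldehyde, 2515 without and 449 for 0.5 minus 0.1 ppm. With no replicate block, that is without pairing the chambers, they were 167, 501, 670 and 151. The 2 concentrations fitted without the 0 ppm experiments gave 171, and without both experiments of low actin signal the 0 ppm count was 698. Leaving out 1 experiment at a time gave 163 to 762 for formaldehyde minus none, 574 to 949 with formaldehyde, 341 to 2575 without and 168 to 535 for 0.5 minus 0.1 ppm. The 5′ actin difference then ran from -0.757 to 0.434 and changed sign in 5 of 9 cases. Over 17 alternatives the lowest adjusted p for formaldehyde minus none ran from 0.265 to 1.00. For the 0 ppm difference 1 probeset reached an adjusted p of 0.0333, without replicate 1 at 0 ppm. Of the 31 genes 0 changed sign in 15 alternatives, and 12, 13 and 14 kept the threshold without replicate 3, 2 and 1 at 0 ppm, 16 with no replicate block and 31 with 32 added to each signal. Other probesets of the gene had the opposite sign for TBC1D1 (-0.42), CEP89 (-0.11), QSOX1 (-0.11) and RAB11FIP3 (0.60 and 0.0692). The number of arrays limits the precision.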

Other observations

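Among genes below the median signal, where the spread was wide, CHAC1, which degrades glutathione and is induced by the integrated stress response, was higher with formaldehyde by 2.09 (95% interval 0.44 to 3.75), with a chamber difference of 0.44 with formaldehyde and -1.65 at 0 ppm. Its groups overlapped. Of the 5 fibroblast markers, COL3A1 and PDGFRB passed as lower with signals no higher than 26.97 on any array, while DCN (0.82), LUM (2.56) and COL1A1 did not pass, and COL1A1, the single one above the median signal, was at -0.0041. These calls rest on the unadjusted threshold, which 6.92% of the probesets below the median signal passed, and CHAC1 was named after its value was seen. One array, the exposure chamber of replicate 2 at 0 ppm, carries another date in its raw file name than the other 17.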
